A study of Mus musculus with 5 samples.

Results

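Retinoic acid is made in the heart by aldehyde dehydrogenases, carried by dedicated binding proteins and read by nuclear receptors. The genes described here are 9 genes of that pathway and of the COUP-TF nuclear receptors: Aldh1a1, Aldh1a2, Aldh1a3, Rbp4, Crabp1, Crabp2, Rarb, Nr2f1 and Nr2f2. They were taken by gene symbol from the deposited table of 40624 genes. All 9 were found there, and all 9 passed the low-count filter that left 17835 genes for testing. Their levels were compared in atria of newborn C57BL/6 mice at postnatal day 1 that carried SLN-Cre with 1 or 2 floxed alleles of Nkx2-5, the gene of a homeodomain transcription factor of heart muscle.

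The 3 control libraries (2, 4 and 6) carried SLN-Cre with Nkx2-5-flox/+, and the 2 mutant libraries (5 and 7) carried SLN-Cre with Nkx2-5-flox/flox. Both groups therefore carried the recombinase, and the controls carried 1 floxed allele. Sln encodes sarcolipin, a protein of atrial muscle, so the driver marks atrial myocytes, whereas the libraries were made from polyA RNA of whole atrial tissue. Separate animals are not named as the source of each library in the labels, so the p-values measure the spread between these libraries, which may be partly technical.

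Reads counted in genes numbered 58501214 to 60899334 per control library and 78841494 and 69648013 in the mutant libraries. Nkx2-5 had 4525, 4288 and 4389 counts in the controls against 452 and 356 in the mutants, a log2 fold change of -3.74 ± 0.09 (SE). All 14 atrial myocyte markers listed, among them Myl7, Myl4 and Nppa, were detected and tested. Sex-linked transcripts placed control 4 and mutant 5 as male and the other 3 libraries as female, so each group held both sexes. Across all tested genes 1174 (6.58%) were called at an adjusted p under 0.05 in the quasi-likelihood test of edgeR after Benjamini-Hochberg adjustment, 538 (3.02%) higher and 636 (3.57%) lower in the mutant. The split was 449 higher and 799 lower when scaled by library totals, and 910 higher and 804 lower without mutant 5.

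Retinol circulates bound to RBP4, and cells oxidise it first to retinaldehyde and then to retinoic acid. The second step is carried out by the ALDH1A dehydrogenases, of which ALDH1A2 (RALDH2) is the main enzyme of the embryonic heart and its epicardium. CRABP1 and CRABP2 bind retinoic acid inside the cell, and CRABP2 passes it to receptors such as RARβ. Rarb is itself a classical retinoic acid target. COUP-TFI (Nr2f1) and COUP-TFII (Nr2f2) are related orphan nuclear receptors, and COUP-TFII is known for its role in atrial identity and in veins.

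In the coordinates of the deposited table (mm9), Aldh1a2 (ENSMUSG00000013584) spans chr9:71063654-71141485, Aldh1a1 (ENSMUSG00000053279) chr19:20676502-20717456 and Aldh1a3 (ENSMUSG00000015134) chr7:73537575-73572298. Rbp4 (ENSMUSG00000024990) spans chr19:38191362-38199558, Crabp1 (ENSMUSG00000032291) chr9:54612709-54620683 and Crabp2 (ENSMUSG00000004885) chr3:87752763-87756959. Rarb (ENSMUSG00000017491) spans chr14:17264585-17651381, Nr2f1 (ENSMUSG00000069171) chr13:78328994-78337834 and Nr2f2 (ENSMUSG00000030551) chr7:77499543-77511021. For 8 of the 9 the listed length of the span equals that of a coding region from start to stop codon in GENCODE vM21, and Rarb is the exception.

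The promoter of Rarb is shown first because it carries the best known retinoic acid response element, a direct repeat of receptor half-sites with 5 bases between them (DR5). RefSeq promoter windows of the 250 bases before a gene's start (build GRCm38.p6) matched 7 of the 9 genes, with 10 windows in all, and none was matched for Aldh1a3 and Crabp2. In the window of Rarb a DR5 lies at positions -53 to -37 from the start, counted on the gene's strand. The stretch below is chr14:16575508-16575535, read on the minus strand, with both half-sites in capitals.
Rarb: gggaagGGTTCAccgaaAGTTCActcgc
A DR5 was found on either strand in 29 of 32851 mouse promoter windows (0.0883%), and among the members only in Rarb. No DR1 (0.164% of windows), DR2 (0.174%) or TNAAGTG (10.1%), the letters of a known NKX2-5 site, was found in any of the 10 member windows. Not all windows lie outside exons as annotated in GENCODE. All 250 bases of the Rarb window and of both Nr2f1 windows are exonic there, as are 124 bases of the second Rbp4 window.

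The proximal promoters of Aldh1a2 and Aldh1a1 are shown because the windows of these 2 dehydrogenase genes hold the same pair of elements. Both stretches are 80 bases on the plus strand, chr9:71215689-71215768 for Aldh1a2 and chr19:20601868-20601947 for the second of the windows of Aldh1a1, with the octamer ATGCAAAT and the box CCAAT in capitals.
Aldh1a2: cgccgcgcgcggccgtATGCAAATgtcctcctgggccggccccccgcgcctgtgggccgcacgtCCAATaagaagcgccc
Aldh1a1: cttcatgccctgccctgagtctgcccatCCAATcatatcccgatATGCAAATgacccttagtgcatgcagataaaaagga
In Aldh1a2 the octamer lies at -84 to -77, upstream of CCAAT at -36 to -32. In Aldh1a1 the order is the other way round, with CCAAT at -72 to -68 and the octamer at -56 to -49. Over all promoter windows, on either strand, 1.60% held the octamer and 33.8% held CCAAT. Among the other members CCAAT was also found in Nr2f2 and in the first window of Rbp4, whose second window holds TATAAA (12.4% of windows) at -28 to -23. The matches describe the letters in these windows, and no measurement of binding was analysed here.

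Aldh1a2 and Rbp4 were lower in the mutant atria, and the other 7 genes did not pass the test. The call of Aldh1a2 held in all 12 alternative fits and that of Rbp4 was lost in 6 of them. Aldh1a2, the most highly expressed of the 9, stood at 67.6% of its control level, and Rbp4 was 3.91-fold lower from a far lower level. The share of members called lower, 2 of 9, is read against 3.57% of all tested genes, and 0 of 9 were called higher against 3.02% (2 of 9 had an unadjusted p under 0.05 in edgeR, against 20.8%, and DESeq2 and limma-voom also called 0 higher). The median log2 fold change of the members was -0.14, against 0.01 over all tested genes. In the same 2 genes every mutant library lay below every control library, a pattern that 19.2% of tested genes showed, and in no member did both mutant libraries lie above all controls (18.6% of tested genes, 37.9% for either direction).

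**Figure D1:**
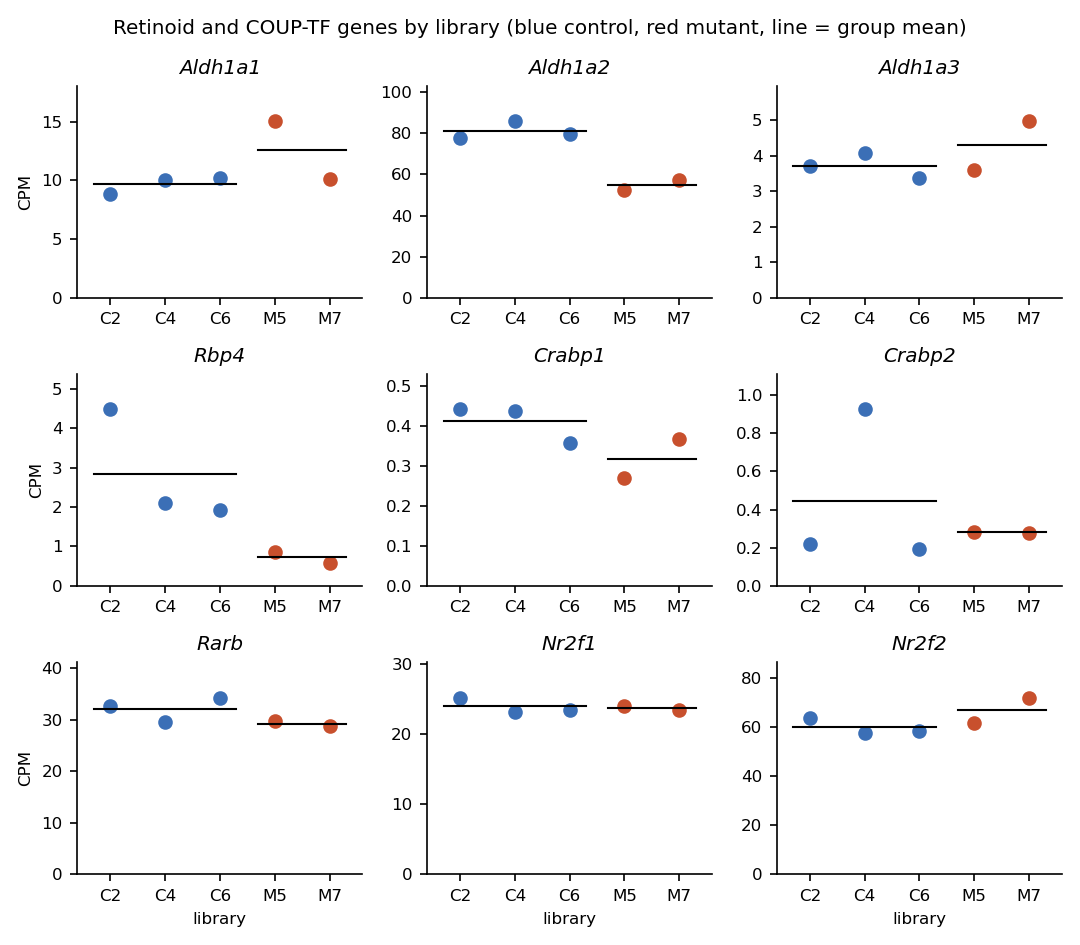
Read level in CPM (a gene's counts relative to the TMM-scaled library total, vertical axes from 0, scaled separately for each gene) in control libraries C2, C4 and C6 and mutant libraries M5 and M7, with a line at each group's mean. Aldh1a2 and Rbp4 are the genes in which both mutant points lie below all 3 control points, and Crabp2 is high in control 4 alone.

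Per length of the gene model, the members covered a wide range of levels. In the controls the order by mean RPKM, computed here as TMM-scaled CPM divided by the gene model's length in kilobases, was Aldh1a2 35.8, Nr2f2 11.2, Rarb 9.22, Aldh1a1 4.72, Nr2f1 3.74, Rbp4 2.19, Aldh1a3 0.682, Crabp1 0.513 and Crabp2 0.281. Neighbours in that order did not overlap between control libraries except Crabp1 and Crabp2. Aldh1a2 lay above 91.9% of tested genes in control RPKM, Nr2f1 above 52.0% and Crabp2 above 14.7%. In the mutants the order was the same but for Rbp4, whose mean of 0.556 RPKM lay below the 0.786 RPKM of Aldh1a3, although single libraries of these genes overlapped.

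Of the synthesis genes, Aldh1a2 gave 77.8, 85.9 and 79.5 CPM in controls 2, 4 and 6, whereas mutants 5 and 7 gave 52.2 and 57.4 CPM. The groups were far apart relative to their spread, with means of 81.1 ± 4.26 CPM (SD, n = 3) and 54.8 ± 3.64 CPM (SD, n = 2). The log2 fold change was -0.57 ± 0.07 (SE, 95% interval -0.74 to -0.39), and the adjusted p by edgeR was 0.004. Within the male libraries the level was 85.9 CPM in the control and 52.2 in the mutant, and within the female libraries 77.8 and 79.5 CPM in controls against 57.4 in the mutant. The fall kept its call in all 12 alternative fits, with log2 fold changes between -0.64 and -0.50.

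Aldh1a1, which encodes a related dehydrogenase, had 8.84, 10.03 and 10.2 CPM in the controls against 15.03 and 10.1 CPM in the mutants. Mutant 5 was above all controls and mutant 7 was among them. The log2 fold change of 0.38 ± 0.17 (SE, 95% interval -0.01 to 0.76) did not pass, with an adjusted p of 0.26 by edgeR. That result rested on which mutant library was used: without mutant 7 the log2 fold change was 0.63 with an adjusted p of 0.03 by edgeR, and without mutant 5 it was 0.06.

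Aldh1a3, the least abundant of the dehydrogenases, had 3.71, 4.08 and 3.36 CPM in the controls against 3.61 and 4.97 CPM in the mutants. The groups overlapped, and the log2 fold change of 0.20 ± 0.18 (SE, 95% interval -0.21 to 0.62) did not pass in edgeR (adjusted p = 0.6). Its sign rested on mutant 7, without which the value was -0.05.

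Added over the 3 dehydrogenases, the controls had 39.4, 43.6 and 40.7 RPKM and the mutants 31.1 and 31.2 RPKM. Aldh1a2 supplied 87.3%, 87.1% and 86.3% of this sum in the controls against 74.3% and 81.3% in the mutants. Aldh1a1 supplied 10.9%, 11.2% and 12.2% in the controls against 23.6% and 15.8% in the mutants. Aldh1a2 thus remained the main ALDH1A transcript in every library, with a smaller share in both mutants than in any control. These shares count transcripts only, and enzyme activity was not measured.

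Ratios of counts within a library do not depend on how libraries are scaled. The log2 ratio of Aldh1a1 to Aldh1a2 was -3.14, -3.10 and -2.96 in the controls against -1.80 and -2.51 in the mutants, a mean difference of 0.91. The log2 ratio of Aldh1a3 to Aldh1a2 was -4.39, -4.39 and -4.56 in the controls against -3.85 and -3.53 in the mutants, a mean difference of 0.76. In both ratios the mutants lay above all controls. The exact two-sided permutation p was 0.1 for each, the smallest that 2 libraries against 3 allow, and 0.13 after Benjamini-Hochberg adjustment over the 4 ratios compared, so neither could pass. The ratio of Nr2f1 to Nr2f2 also did not overlap (exact permutation p = 0.1), with -1.34, -1.31 and -1.32 in the controls against -1.36 and -1.62 in the mutants, a mean difference of -0.17 that was -0.04 without mutant 7 and -0.30 without mutant 5. The ratio of Crabp1 to Crabp2 overlapped between the groups (exact permutation p = 1.0).

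**Figure D2:**
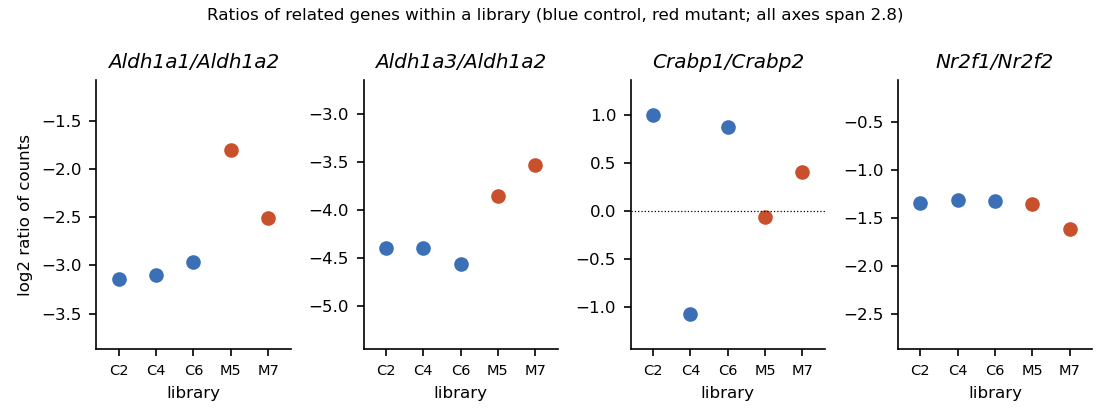
Log2 ratio of raw counts of related genes within each library (control C2, C4, C6 in blue, mutant M5, M7 in red), with vertical axes of equal span. Both mutant points lie above the controls for Aldh1a1 and Aldh1a3 over Aldh1a2, and for Nr2f1 over Nr2f2 mutant 5 lies just below the controls.

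Of the transport genes, Rbp4, the plasma carrier of retinol, had 264, 125 and 119 counts in the controls against 68 and 39 in the mutants. In CPM these were 4.48, 2.10 and 1.93 against 0.871 and 0.571, so control 2 stood above the other controls and both mutants were below all of them. The log2 fold change was -1.97 ± 0.45 (SE, 95% interval -3.02 to -0.91), with an adjusted p of 0.049 by edgeR. The fall kept its sign in all 12 alternative fits, between -2.31 and -1.48, but lost its call in 6 of them, the largest adjusted p being 0.22 by edgeR without mutant 7. The call was also lost without control 4 (edgeR adjusted p = 0.076) and without mutant 5 (0.096), with sex as a covariate (0.11), with no low-count filter (0.053) and in limma-voom (0.075). Without control 2 the log2 fold change was -1.48 and the edgeR adjusted p 0.048.

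Crabp1 had 26, 26 and 22 counts in the controls against 21 and 25 in the mutants. The log2 fold change was -0.38 ± 0.38 (SE, 95% interval -1.25 to 0.50), so changes within that interval were not excluded (edgeR adjusted p = 0.65). Crabp2 had 13, 55 and 12 counts in the controls against 22 and 19 in the mutants, and its mean of 0.281 ± 0.261 RPKM (SD, n = 3) in the controls was set by control 4. Its log2 fold change of -0.67 ± 0.71 (SE) became 0.42 without control 4 and passed in neither case (edgeR adjusted p = 0.67 and 0.74). Lrat and Stra6, named after their values were seen, were also highest in control 4, at 4.62 CPM against 0.373 and 0.357 for Lrat and at 0.538 CPM against 0.102 and 0.0162 for Stra6 in the other controls.

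Rarb, the receptor of the set and holder of the DR5 shown above, had 32.7, 29.5 and 34.3 CPM in the controls against 29.7 and 28.8 CPM in the mutants. Mutant 5 fell within the control range and mutant 7 just below it. Its log2 fold change was -0.14 ± 0.09 (SE, 95% interval -0.34 to 0.06), and it did not pass (edgeR adjusted p = 0.42). For the counts listed under Rarb, which may include reads of an overlapping gene, the interval does not reach the -0.57 measured for Aldh1a2. In GENCODE vM21 Rarb shares 1793 exonic bases with Top2b on the opposite strand. Top2b had up to 13598 counts and a log2 fold change of 0.08, and as the sources name no strand setting for the counting, reads of these genes in the shared bases cannot be told apart.

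The COUP-TF genes showed no called change. Nr2f1 had 25.2, 23.2 and 23.5 CPM in the controls against 24.0 and 23.4 CPM in the mutants, a log2 fold change of -0.01 ± 0.08 (SE, 95% interval -0.19 to 0.16, edgeR adjusted p = 0.95). Nr2f2 had 63.6, 57.7 and 58.5 CPM in the controls against 61.6 and 72.0 CPM in the mutants, a log2 fold change of 0.16 ± 0.08 (SE, 95% interval -0.04 to 0.35, edgeR adjusted p = 0.34). Mutant 7 was the highest library for Nr2f2 and mutant 5 lay among the controls. Both genes share exonic bases with an antisense gene, 643 for Nr2f2 with B130024G19Rik and 123 for Nr2f1 with A830082K12Rik, but these had at most 37 and 67 counts in any library.

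**Figure D3:**
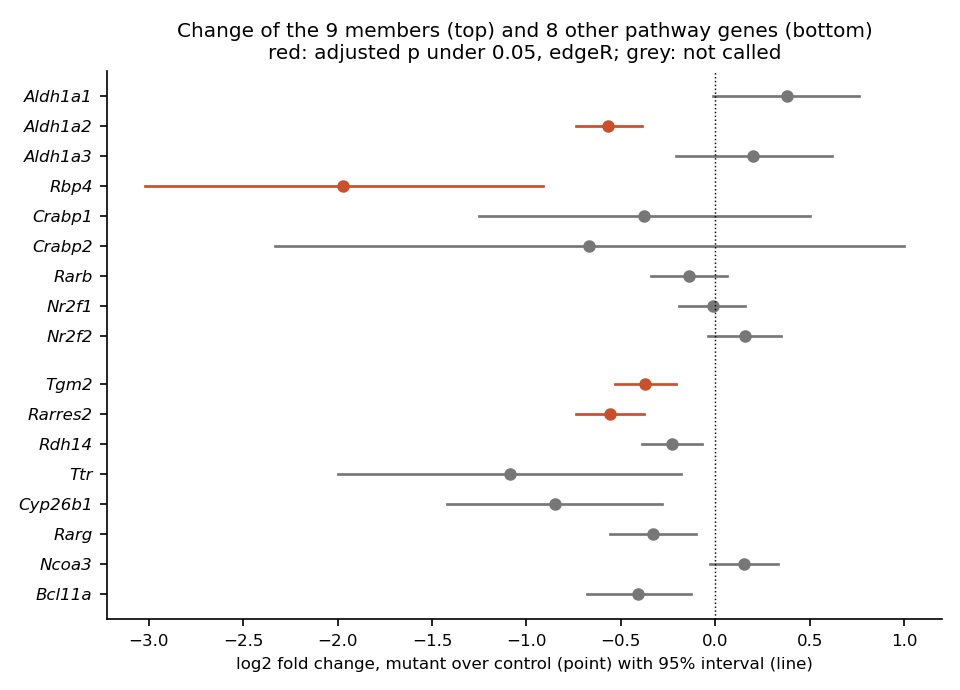
Log2 fold change of mutant over control (horizontal axis, point) with its 95% interval (line) for the 9 members above and 8 other genes of the pathway below, red where the edgeR adjusted p was under 0.05. The interval of Aldh1a2 (-0.74 to -0.39) is narrow beside that of Rbp4 (-3.02 to -0.91), and that of Crabp2 lies on both sides of 0.

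In whole tissue, fewer cells of a type and less RNA per cell cannot be told apart, and markers of the epicardium, a known site of Aldh1a2 expression, moved with it. Of 12 epicardial and mesothelial markers 10 were called lower and 0 higher, against 3.57% and 3.02% of all tested genes in edgeR. Their median log2 fold change was -0.55, against 0.01 over all tested genes. Like the other gene lists here, these markers were chosen with earlier results of these data known. The shares and the median therefore describe the list and are not an independent test. The keratin gene Krt19 had 105, 112 and 98.2 CPM in the controls against 61.5 and 60.5 in the mutants, a log2 fold change of -0.79 ± 0.07 (SE). The uroplakin gene Upk3b had 520, 470 and 412 CPM in the controls against 276 and 266 in the mutants. The epicardial transcription factor genes Wt1 (log2 fold change -0.23 ± 0.09 SE, edgeR adjusted p = 0.19) and Tbx18 (-0.02 ± 0.19 SE, edgeR adjusted p = 0.97) were the markers that did not pass. The call of Krt18 was lost in 3 of the 12 alternative fits, without control 2, control 4 or mutant 7. That of Muc16 was lost in 5, without any control, without mutant 7 and with sex as a covariate, while Upk3b, Upk1b, Msln, Lrrn4, Bnc1, Krt19, Krt8 and Gpm6a were called in all 12 alternative fits.

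Summed over the 12 markers, the epicardial level was 1485, 1430 and 1306 CPM in the controls against 898 and 925 CPM in the mutants. Upk3b and Msln weighed most in this sum, with control means of 467 and 343 CPM. Wt1 and Tbx18, which did not pass, weighed little in it, with control means of 43.7 and 53.98 CPM. Aldh1a2 amounted to 5.24%, 6.01% and 6.09% of that sum in the controls against 5.81% and 6.20% in the mutants, so relative to this sum the groups overlapped. Rbp4 amounted to 0.301%, 0.147% and 0.148% in the controls against 0.0970% and 0.0618% in the mutants, which did not overlap. The part of the epicardial markers in the changes of Aldh1a2 and Rbp4 was not tested beyond these ratios.

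**Figure D4:**
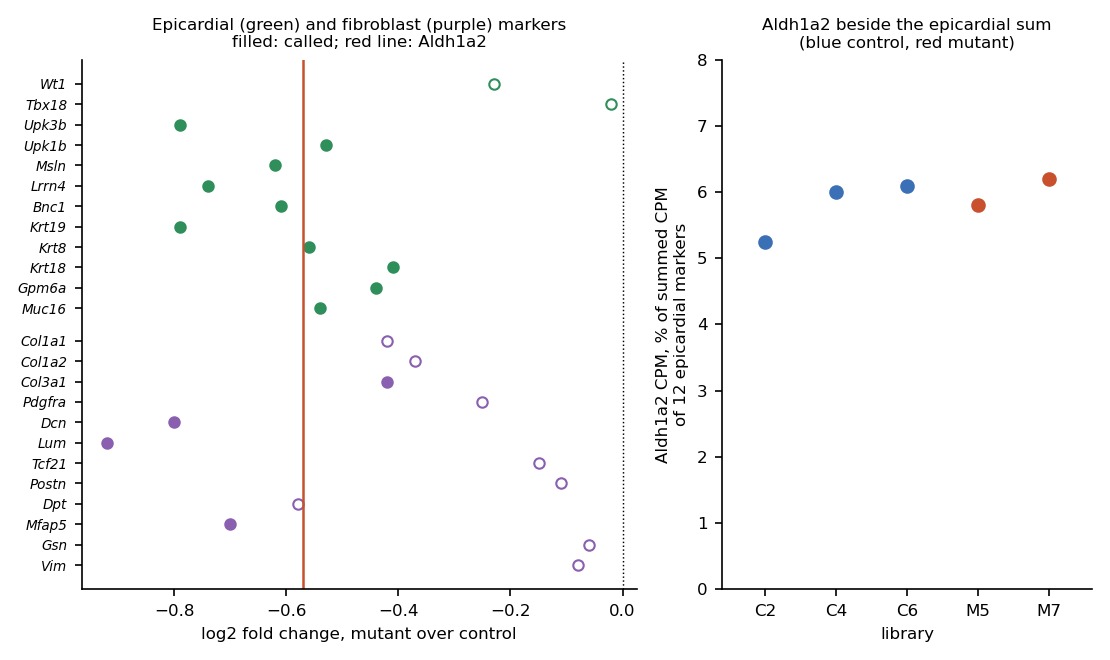
Left, log2 fold change of mutant over control for 12 epicardial and mesothelial markers (green) and 12 fibroblast markers (purple), filled where called, with a red line at the -0.57 of Aldh1a2. Right, Aldh1a2 CPM as a percentage of the summed CPM of the epicardial markers in each library (axis from 0), where the mutant points at 5.81% and 6.20% overlap the controls at 5.24% to 6.09%.

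Some fibroblast markers also fell. Of 12, 4 were called lower (Col3a1, Dcn, Lum and Mfap5) and 0 higher, against 3.57% and 3.02% of all tested genes in edgeR. The median log2 fold change of the 12 was -0.39. Their summed level was 13080 to 14620 CPM in the controls against 10795 and 10833 CPM in the mutants. Dcn, which encodes the proteoglycan decorin, had 612, 579 and 603 CPM in the controls against 367 and 320 in the mutants, whereas the fibroblast genes Col1a1 and Col1a2 missed the threshold (edgeR adjusted p = 0.062 and 0.051). DESeq2 called 7 of the 12 lower, against 6.22% of all genes it tested. The call of Col3a1 was lost in 5 of the 12 alternative fits. It was lost when any control was left out and with sex as a covariate (edgeR adjusted p up to 0.12), and also without mutant 7. Without mutant 7 the log2 fold change of Col3a1 was -0.41, with mutant 5 as the only mutant library. Aldh1a2 amounted to 0.532% to 0.651% of the fibroblast sum in the controls against 0.482% and 0.532% in the mutants, where the highest mutant lay below the lowest control by less than the rounding. Rbp4 amounted to 0.0148% to 0.0306% of it in the controls against 0.00804% and 0.00529% in the mutants, which did not overlap.

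Liver and fat are the tissues best known for Rbp4. Of 8 liver and plasma markers 4 could be tested and 0 were called (edgeR, with 1 of the 4 at an unadjusted p under 0.05, and 0 in DESeq2 and limma-voom). The summed level was 10.4 to 11.4 CPM in the controls against 9.41 and 7.43 CPM in the mutants, without overlap and nearly all of it from Trf. The defining markers Alb and Afp did not exceed 0.211 CPM in any library, and Serpina1a had no count. Of 7 fat markers Fabp4, which endothelial cells also express, was the gene tested (log2 fold change 0.12), while Adipoq did not exceed 0.119 CPM and Cfd and Cidec had no count. Apart from Trf, Apoa1 and Fabp4, no marker of either list exceeded 0.387 CPM in any library, the level of Apoa2 in control 4. The part of either tissue in the fall of Rbp4 was not tested.

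Counts of called markers of other cell types are read against 3.02% higher and 3.57% lower over all tested genes in edgeR. Endothelial and endocardial markers had 2 called higher of 11 (Tie1 and Eng), venous and lymphatic markers 1 higher of 9 (Flt4), and smooth muscle markers 2 higher of 7 (Acta2 and Des). Ventricular markers had 3 higher (Hey2, Lbh and Xirp2) and 1 lower (Cited1) of 9, with 5 positive and 4 negative log2 fold changes. The uncalled Myl3 (-2.57), Myl2 (-1.74) and Irx4 (-1.49) were negative, and Myh7 (0.24) and Smpx (0.05) positive. Myl3 had 124, 67.2 and 145 CPM in the controls against 22.3 and 15.4 in the mutants (edgeR adjusted p = 0.076). Myl2 had 95.9 CPM in control 6 against 22.3 and 16.3 in controls 2 and 4. Atrial markers had 3 lower (Nppa, Gja5 and Pam) and 1 higher (Bmp10) of 14. Leukocyte markers had 1 higher of 5 (Emr1) and erythroid markers 1 higher of 7 (Hba-a1). Lung epithelial markers had 0 called of 4 and neural and Schwann cell markers 0 of 11 (edgeR, with 2 of each list at an unadjusted p under 0.05). DESeq2, which called 5.72% of all genes higher and 6.22% lower, called 3 endothelial, 4 smooth muscle, 4 erythroid and 2 leukocyte markers higher and 0 lower. It called 1 venous or lymphatic marker higher and 1 lower, 3 ventricular markers higher and 2 lower, 1 atrial marker higher and 4 lower, 1 lung marker lower, and 1 neural or Schwann cell marker higher and 1 lower. In limma-voom the counts differed from those of edgeR for smooth muscle (3 higher), ventricular (2 lower) and atrial markers (4 lower). Their part in the values of the 9 genes was not tested.

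The number of called genes in the rest of the retinoid and COUP-TF pathway differed between tools. Of 74 further genes listed, 73 were in the table and 60 could be tested. Of these, 2 were called lower (Tgm2 and Rarres2) and 0 higher, against 3.57% and 3.02% of all tested genes, and 15 of the 60 had an unadjusted p under 0.05 by edgeR, against 20.8% of all tested genes. Their median log2 fold change was -0.11, with 39 negative and 21 positive. DESeq2 called 8 of them lower and 0 higher, against 6.22% and 5.72% of all genes it tested, and limma-voom 2 lower and 0 higher, against 3.04% and 2.50%.

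Both called genes are listed as retinoic acid targets, of which 16 were tested, with a median log2 fold change of -0.47 and 14 negative values, against a median of 0.01 and 8677 negative values among the 17835 tested genes. The 2 of 16 called lower are read against 3.57%. In edgeR 5 of the 16 had an unadjusted p under 0.05 (20.8% of all tested genes), and DESeq2 called 3 lower (6.22%). Rarres2, which encodes the secreted protein chemerin, had 136, 128 and 118 CPM in the controls against 89.9 and 83.0 in the mutants. Its log2 fold change was -0.56 ± 0.08 (SE, edgeR adjusted p = 0.0048), and it was called in all 12 alternative fits. Tgm2, the tissue transglutaminase gene, had 707, 711 and 668 CPM in the controls against 536 and 540 in the mutants, a log2 fold change of -0.37 ± 0.07 (SE, edgeR adjusted p = 0.019). Its call was lost without control 2 (edgeR adjusted p = 0.099) and without control 4 (0.081). Rarres2 shares 892 exonic bases with Lrrc61 on the opposite strand (log2 fold change -0.31, at most 1316 counts), and Tgm2 shares 370 with Rprd1b (-0.07, at most 3451 counts), so reads in those bases cannot be told apart either. Most Hox genes of the list were under 1 CPM, among them Hoxa5 at 0.292 to 0.655 CPM, and none passed.

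In the other lists no gene passed in edgeR or limma-voom, and the gene with the smallest p stands for each. DESeq2 called 2 lower in oxidation and storage and 1 lower each in breakdown, the receptors and the COUP-TF relatives (6.22% of all genes it tested). Counts at an unadjusted p under 0.05 in these lists are read against 20.8% of all tested genes in edgeR. Among 16 tested genes of retinol oxidation and storage (5 at an unadjusted p under 0.05), Rdh14, a retinol dehydrogenase gene, had a log2 fold change of -0.23 ± 0.07 (SE, edgeR adjusted p = 0.097). Adh1, the other gene of this list that DESeq2 called, had -0.59 ± 0.17 (SE, edgeR adjusted p = 0.1). Its levels were 22.7, 21.0 and 25.7 CPM in the controls against 18.3 and 12.5 in the mutants. Of the 16 log2 fold changes 10 were negative and 6 positive. Rdh10, the dehydrogenase gene that makes retinaldehyde in the embryo, had 9.89, 10.7 and 13.4 CPM in the controls against 9.76 and 10.6 in the mutants. Among 6 transport genes (1 at an unadjusted p under 0.05), Ttr, whose product transthyretin binds RBP4 in plasma, had 1.95, 1.82 and 1.12 CPM in the controls against 1.05 and 0.469 in the mutants. Its log2 fold change was -1.09 ± 0.40 (SE, edgeR adjusted p = 0.16), and it passed without mutant 5 (-1.79, edgeR adjusted p = 0.036).

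Of the 3 genes of retinoic acid breakdown, Cyp26b1 was the gene tested. It had 1.80, 2.44 and 1.67 CPM in the controls against 1.03 and 1.16 in the mutants, with both mutants below all controls, and a log2 fold change of -0.85 ± 0.25 (SE, edgeR adjusted p = 0.085). Among 5 further receptors (2 at an unadjusted p under 0.05), Rarg had 12.6, 13.3 and 12.7 CPM in the controls against 9.74 and 10.7 in the mutants, a log2 fold change of -0.33 ± 0.10 (SE, edgeR adjusted p = 0.1), while Rara stood at 0.02 and Rxra at -0.03. All 10 coregulators had positive log2 fold changes, with a median of 0.06 and no unadjusted p under 0.05, and Ncoa3 had 0.15 ± 0.08 (SE, edgeR adjusted p = 0.32). Among 6 COUP-TF relatives and partners (1 at an unadjusted p under 0.05), Bcl11a, which encodes a COUP-TF-interacting zinc finger protein, had -0.41 ± 0.12 (SE, edgeR adjusted p = 0.092), and it passed without mutant 5 (edgeR adjusted p = 0.038). The third COUP-TF family gene, Nr2f6, had a log2 fold change of -0.04.

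Genes with the most similar pattern over the 5 libraries were sought for the 3 members with the largest fold changes, by the root mean square difference of log2 CPM centred on the control mean. For Aldh1a2 these were Ikbke (0.018), Gm889 (0.024) and Zfp273 (0.026). For Rbp4 they were Pde1c (0.345), Gdf2 (0.348) and Ddit4l (0.367), of which Gdf2, the gene of the circulating ligand BMP9, had 4.05, 2.50 and 1.90 CPM in the controls against 1.06 and 0.952 in the mutants. Like Rbp4, Gdf2 was highest in control 2. For Crabp2 they were Olfml2a (0.258), Cldn11 (0.271) and Hapln1 (0.279), each highest in control 4, with Olfml2a at 42.5 CPM there as compared with 10.04 to 20.5 CPM elsewhere. These likenesses describe 5 libraries and carry no test.

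In the authors' deposited table, Aldh1a2 had RPKM of 33.2 and 22.1 in control and mutant, a log2 ratio of -0.59 and an adjusted p of 2.1e-05. Rbp4 had RPKM of 2.02 and 0.516, a log2 ratio of -1.97 and an adjusted p of 0.014 in the authors' deposited table. The other 7 members had adjusted p-values of 0.57 (Aldh1a1) or more in the authors' deposited table.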

How the data were processed

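RNA was sequenced from 3 control and 2 mutant atrial libraries. The authors' deposited table holds raw counts for each gene, with coordinates in mm9, gene lengths, pooled RPKM per group, a log2 ratio and p-values. Per the submitters' processing notes the tools were TopHat2 2.0.4, HTSeq 0.5.4p3 and DESeq, and no strand setting is given. The deposited RPKM were a median of 0.919 (control) and 0.929 (mutant) times RPKM computed from the counts and lengths over gene totals. Reads in no gene (3.97% to 6.03%) or in several genes (2.31% to 3.18%) stayed out of library sizes. These are percentages of the gene counts plus every other entry of the counting tool.

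Counts were filtered with filterByExpr (minimum count 10), scaled by TMM and tested with edgeR 4.0.16 (R 4.3.3, robust quasi-likelihood, Benjamini-Hochberg adjustment over all tested genes, threshold 0.05). Replicates differed by more than counting noise (chi-square per degree of freedom 20.3 to 33.9 between controls and 85.4 between the mutants). The 12 alternative fits were DESeq2 size factors, library totals, no filter, at least 1 CPM in 2 libraries (which dropped Crabp1 and Crabp2), sex as a covariate, DESeq2 1.42.0, limma 3.58.1 voom, and each library left out. Sex was read from Xist and Y-linked genes. The script was tested on simulated data. Members, gene lists and motifs were chosen with earlier results of these data known. Named genes were all members, every called gene of the pathway lists or, where none was called, the one with the smallest p, the called markers, and the most similar genes. The rule also names the first 3 detected markers of each list, not all of which are given. Outside the rule, Adh1, Rdh10, Rara, Rxra, Nr2f6, Hoxa5, Lrat, Stra6, Trf, Apoa2, Adipoq and other uncalled markers were named after their values were seen. GENCODE vM21 served for shared exonic bases and RefSeq (GRCm38.p6) for promoters.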

Additional observations from a re-analysis of the deposited data

How the results depend on the processing

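The number of genes called was 1174 with edgeR, 2004 with DESeq2, 391 at an adjusted p under 0.01, and 529 (without control 2), 534 (without control 4) and up to 1714 (without mutant 5) when a library was left out. Of the 9 members, 1 was called with no filter, 1 with sex as a covariate, 1 in limma-voom, 1 at an adjusted p under 0.01, and 1 to 2 when a library was left out; Aldh1a2 was called in all 12 alternative fits, so the call lost was that of Rbp4, and Aldh1a1 was gained without mutant 7. Of the other pathway genes, 8 were called with DESeq2, 1 at an adjusted p under 0.01, and 1 (without control 2 or 4) to 8 (without mutant 5) when a library was left out. With a library left out, log2 fold changes ranged from -0.05 to 0.42 for Aldh1a3, from -1.02 to 0.42 for Crabp2 and from -0.04 to 0.02 for Nr2f1, and the difference of the Crabp1 to Crabp2 ratio from -0.77 to 0.27; these changed sign. The causes were not tested. No scaling moved the median of all genes by over 0.1. Low counts limit Crabp1, Crabp2 and Rbp4. No paired analysis was possible because the groups share no replicate number.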
